A study of Rattus norvegicus with 12 samples.

Results

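Granins and the enzymes that cut their cargo were followed in rat hippocampus after KA or PBS and after isolated or enriched housing. The set held 10 genes chosen by name, with signal in all 4 groups as part of the choice, so that their presence is no finding. In the array annotation 11 of 15923 probe sets carried a single symbol from the set, and they covered 9 of the 10 genes. Pcsk1 was not analysed here. Chga, Chgb, Scg2, Scg3, Scg5, Vgf, Pcsk2 and Cpe had 1 probe set each and Pam had 3. No member passed the test in any comparison. The member difference with the smallest unadjusted p was that of Chga, which was lower after KA in enriched rats by a fold of 0.752, and most other members differed little between groups.

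Rats were treated with KA or PBS (phosphate-buffered saline, the control treatment) at postnatal day 20. The labels give KA only as an abbreviation. Since the series is about seizure injury, it is read as kainic acid, which activates glutamate receptors and causes seizures. PBS_isolated and KA_isolated rats lived singly for 10 days, and PBS_enriched and KA_enriched rats shared a large enriched cage in groups of 8. The 10 days are given for the isolated groups only. Each group had 3 samples, each a pool of 3 to 4 animals (the label of PBS_enriched replicate 3 says samples), hybridised to 1 array each. No genotype, strain or sex is given in the labels, and there was no group in ordinary group housing, so enrichment and isolation cannot be told apart. The labels do not say which animals shared a cage or litter, so p-values measure only the spread between these pools.

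Dense-core vesicles store neuropeptides and growth factors and release them on strong stimulation. Granins are acidic proteins that aggregate in the trans-Golgi network and help to form these vesicles, and several are themselves cut into peptides. Prohormone convertases cleave precursors after pairs of basic residues, carboxypeptidase E removes the basic residues left behind, and the monooxygenase PAM amidates the C-terminus of many peptides. In hippocampus these genes are expressed by principal cells and interneurons, and several are known as targets of activity-dependent transcription.

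The tissue carried markers of hippocampal neurons. Of 15 markers of principal cells 13 had a probe set, from Slc17a7 at a mean signal of 2250 and Nrgn at 2130 down to Dsp at 35.1 and Spink8 at 1.77, which lay below the filter on dim probe sets. Adrenal and pituitary markers, the classical endocrine sources of granins, were dim: 1 of 10 passed the filter, Lhb at 61.7, and Dbh (10.0), Prl (5.24) and Pomc (2.94) were near the floor of the array. PBS_isolated replicate 1 stood apart in choroid plexus markers (8 of 10 with a probe set), with a summed signal of 3554 against 671.4 to 1416 in the other 11 samples. Signal is a linear intensity scaled by array. It cannot be set side by side between different probe sets as an amount of RNA, and in bulk tissue fewer cells of a type and less RNA per cell cannot be told apart.

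The cAMP response element, the site of the activity-dependent factor CREB, is known from the promoters of several granin genes, and these promoters are shown for that reason. RefSeq sequences of the GRCr8 assembly, from 250 bases before to 50 bases after the annotated start, matched 8 of the 10 members. Chga and Pcsk1 had no sequence in the set used, so their promoters were not searched. The full palindromic element TGACGTCA was present in 2 of the 8, Scg2 and Vgf, against 1.91% of all 27457 promoters of the same length. It began 123 bases before the start in Scg2 and 90 bases before it in Vgf. Both upstream stretches of 250 bases are shown 5' to 3' on the gene's strand, with the element in capitals.
Scg2, chr9:88256867-88257116, minus strand: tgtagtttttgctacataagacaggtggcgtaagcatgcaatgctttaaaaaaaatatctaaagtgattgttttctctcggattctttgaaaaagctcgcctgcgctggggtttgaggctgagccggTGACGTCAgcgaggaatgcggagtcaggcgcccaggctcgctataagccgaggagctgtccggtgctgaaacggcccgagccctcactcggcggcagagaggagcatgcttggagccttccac
Vgf, chr12:25277021-25277270, minus strand: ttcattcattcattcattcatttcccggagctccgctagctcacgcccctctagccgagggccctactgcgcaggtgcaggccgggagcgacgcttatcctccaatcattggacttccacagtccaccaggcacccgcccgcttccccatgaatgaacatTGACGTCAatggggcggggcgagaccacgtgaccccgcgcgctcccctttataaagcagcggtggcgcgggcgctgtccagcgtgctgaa

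The core TGACG, searched on both strands and contained in the full element, was found in 7 of the 8 promoters and in 22.0% of all promoters. Chgb alone among the 8 had no match in this window. Stretches of 60 bases around a match of the core upstream of the start are shown for the 5 members without the full element, with the core in capitals (as its reverse complement CGTCA in Pcsk2).
Scg3, chr8:85322522-85322581, minus strand: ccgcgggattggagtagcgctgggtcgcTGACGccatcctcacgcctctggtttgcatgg
Scg5, chr3:121042796-121042855, minus strand: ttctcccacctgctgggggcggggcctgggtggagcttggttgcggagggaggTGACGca
Pcsk2, chr3:151333853-151333912, plus strand: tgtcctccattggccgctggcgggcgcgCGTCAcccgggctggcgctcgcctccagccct
Cpe, chr16:29796506-29796565, plus strand: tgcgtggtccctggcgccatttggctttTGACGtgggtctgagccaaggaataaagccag
Pam, chr9:105570235-105570294, plus strand: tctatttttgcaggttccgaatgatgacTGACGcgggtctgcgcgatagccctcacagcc
Of other elements, GGGCGG (the GC box, both strands) was in 6 of 8 against 34.9% of all promoters, and CCAAT (both strands) in 3 of 8 against 37.7%. CACGTG (the E box) was in Vgf alone, against 6.65%, and TATAAA on the gene's strand in Vgf alone, against 9.08%. These are matches of letters, not measured binding. For none of the elements, the full one and the core included, were the promoters compared matched for base composition. The counts are therefore not read as a trait of the set.

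Of the 11 member probe sets 9 passed the filter on dim probe sets and were tested, 1 for each gene. For Pam the probe set with the highest signal was used. Its other 2 were dim, with mean signals of 24.92 and 2.785, and did not pass the filter. When all probe sets were fitted without the filter, the first of these had log2 KA differences of -0.483 in isolated and -0.218 in enriched rats, against 0 and 0.042 for the bright one (lowest adjusted p of the dim ones in any comparison 0.883, limma). No member passed the test in any of the 7 comparisons (0 of 9 in each; limma, adjusted p under 0.05 over 9520 probe sets). Over all probe sets the share called was 0.0105% for KA against PBS with isolated housing, 0% with enriched housing and 0.0105% with the housings averaged. It was 0.0105% for enriched against isolated housing after PBS, 0% after KA and 0.021% over both treatments, and 0% for the interaction, here the KA difference of the enriched groups less that of the isolated groups. At an unadjusted p under 0.05 the members gave 1 of 9 in enriched rats after KA, 1 of 9 for KA over both housings and 1 of 9 for the interaction, all of them Chga, and 0 of 9 in each of the other 4 comparisons. The shares of all probe sets at that threshold were 4.98%, 4.31% and 4.97% for the first 3, and 4.31% for KA in isolated rats, 4.21%, 7.02% and 5.64% for housing after PBS, after KA and over both.

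**Figure D1:**
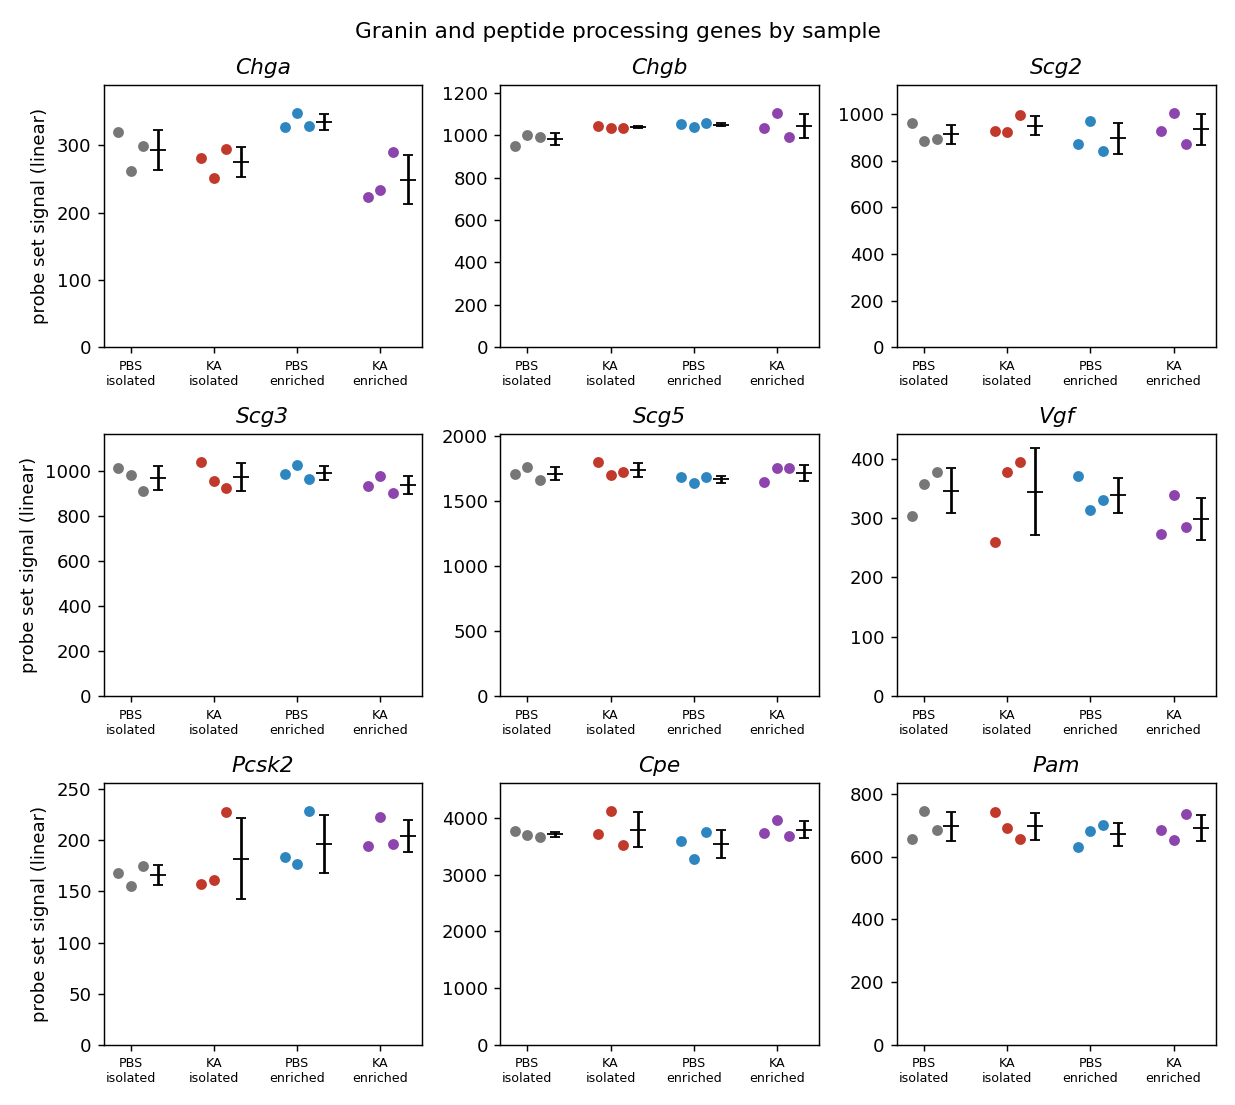
Probe set signal (linear scale from 0) of the 9 measured genes in each of the 12 samples, by group; points are samples and the bar beside them is the mean with the SD (n = 3). Chga lies between 223.8 and 290.6 in KA_enriched and between 327 and 348.2 in PBS_enriched, while Chgb, Scg3 and Scg5 differ little between groups.

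Chga encodes chromogranin A, the granin for which the family is named and a precursor of several secreted peptides. Its signal was 319.9, 261.3 and 299.6 in PBS_isolated and 281.3, 250.9 and 294.5 in KA_isolated, for replicates 1, 2 and 3. In enriched rats it was 327, 348.2 and 329.6 after PBS and 223.8, 233.2 and 290.6 after KA. The isolated groups overlapped, and all 3 KA_enriched samples lay below all 3 PBS_enriched samples. Chga was the only member separated in this comparison (1 of 9, lower), where 4.62% of all probe sets were separated and lower, 5% higher and 9.62% either way.

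The mean of Chga was 334.9 ± 11.6 (SD, n = 3) in PBS_enriched, 293.6 ± 29.7 in PBS_isolated, 275.6 ± 22.3 in KA_isolated and 249.2 ± 36.1 in KA_enriched. In this order of levels PBS_enriched did not overlap with its neighbour PBS_isolated, and the other neighbours overlapped with gaps smaller than their pooled SD. Within enriched rats Chga was lower after KA by a fold of 0.752, a log2 difference of -0.41 (SE 0.104, 95% interval -0.635 to -0.186, on the log2(signal + 17) scale). It did not pass over all probe sets (limma, adjusted p = 0.842), and its unadjusted p ranked 16 of 9520. Results of these data were known when the set was chosen, so this is a description. An exact permutation test of the 3 samples against 3 gave p = 0.1, the smallest that it can give.

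In isolated rats the KA difference of Chga was -0.085 (SE 0.104, 95% interval -0.309 to 0.14). The interaction was -0.33 (SE 0.147, 95% interval -0.643 to -0.009, limma, adjusted p = 0.951), so a difference between the housings was not called. Over both housings the KA difference was -0.25 (SE 0.0735, limma, unadjusted p = 0.00498, adjusted p = 0.996). An exact permutation test within housings gave p = 0.025 against a smallest possible 0.005. Neither the 0.00498 nor the 0.025 is adjusted for the 9 genes. After PBS, Chga was higher with enriched housing by 0.18 (SE 0.104, adjusted p = 0.998), and after KA the difference was -0.14 (SE 0.104, adjusted p = 0.814). The first was 0.107 without PBS_isolated replicate 2, and the second -0.25 without KA_enriched replicate 3 and -0.074 without KA_enriched replicate 1. These comparisons share PBS_enriched and KA_enriched samples with the KA comparison and are no separate support for it.

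KA_enriched replicate 3 had the highest ratio of 3 prime to 5 prime beta-actin signal, with a log2 of 0.856 against 0.361 to 0.639 in the other 11 samples. Of the 3 KA_enriched samples it had the highest Chga signal, and without it the KA difference in enriched rats was -0.519 (adjusted p = 0.404). With the beta-actin ratio as a covariate it was -0.452 (adjusted p = 0.929). Endothelial and mural cell markers also separated these groups: 8 of 10 had a probe set, and their summed signal was 948.5 to 1003 in KA_enriched against 1008 to 1106 in PBS_enriched. All 5 that were tested were lower after KA, with a median log2 difference of -0.077, with 0 at an unadjusted p under 0.05. All 4 choroid plexus markers that were tested were higher after KA, with a median of 0.319. At an unadjusted p under 0.05, reached by 4.98% of all probe sets, there was 1 of these markers. The summed signal of choroid plexus markers overlapped, at 790 to 1416 in KA_enriched against 760.3 to 809.4 in PBS_enriched. The part of either list in the Chga difference was not tested. Summed microglial signal (17 of 18 markers) overlapped between these groups, at 1921 to 2991 and 2079 to 3016, and so did that of principal cells (13 of 15), at 7142 to 8464 and 7729 to 8135. KA_enriched replicate 3 had the microglial sum of 2991, against 1921 and 2174 in its group. PBS_enriched replicate 2 had that of 3016, against 2079 and 2116. Each also had the highest Chga signal of its group, at 290.6 and 348.2. The isolated groups differed from this. In KA_isolated the highest microglial sum, 3280 in replicate 2, went with the lowest Chga signal, 250.9. In PBS_isolated the highest sum, 2191 in replicate 3, went with a Chga signal of 299.6, between those of the other replicates. The part of the microglial markers in the Chga difference was not tested.

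**Figure D2:**
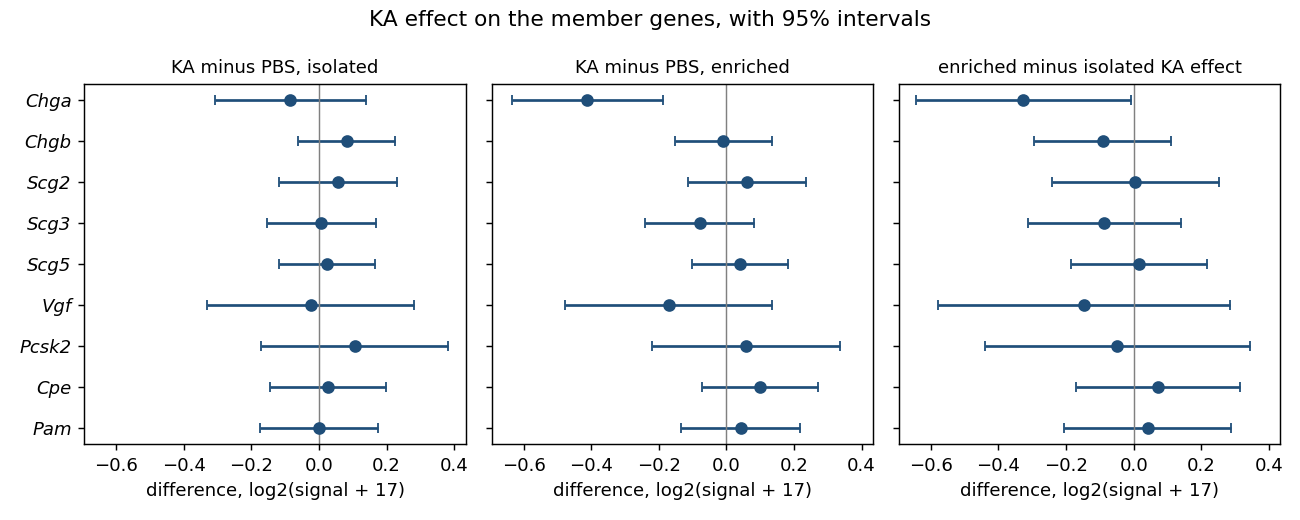
Log2 differences of KA minus PBS for isolated housing, for enriched housing and for the interaction, in the 9 tested genes; points are estimates and bars are 95% intervals of the limma model (3 samples a group). The interval of Chga lies below 0 in enriched rats (-0.635 to -0.186), and every other interval for KA in a single housing includes 0.

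The chromogranin nearest in kind to Chga, Chgb, had another pattern. Its signal was 949.6, 1002 and 993.5 in PBS_isolated and 1046, 1037 and 1037 in KA_isolated. It was 1053, 1042 and 1058 in PBS_enriched and 1037, 1106 and 991.3 in KA_enriched. All KA_isolated and all PBS_enriched samples lay above the PBS_isolated samples, and KA_enriched, from 991.3 to 1106, overlapped with all other groups.

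The KA difference of Chgb in isolated rats was 0.083 (SE 0.0664, adjusted p = 0.999), or 1.06-fold, and that of enriched housing after PBS was 0.097 (SE 0.0664, adjusted p = 0.998). Both differences are measured against the same PBS_isolated samples. Chgb was the only member of 9 whose KA_isolated samples did not overlap with PBS_isolated, where 5.19% of all probe sets were separated and higher and 5.62% lower. Microglial markers separated the same groups: their summed signal (17 of 18 genes) was 2801 to 3280 in KA_isolated against 2046 to 2191 in PBS_isolated. All 14 that were tested were higher, with a median log2 difference of 0.445. Of these 10 had an unadjusted p under 0.05, reached by 4.31% of all probe sets, and 0 passed after adjustment. GABA interneuron markers (9 of 12) had sums of 3045 to 3187 against 3204 to 3329, with 9 of 9 lower and a median of -0.034. Astrocyte markers (9 of 10) had sums of 12290 to 12950 against 11280 to 12240, with 5 higher and 4 lower. Sums of principal cell markers overlapped, at 7370 to 8290 against 8119 to 8269, but their mean log2 values, centred on each gene, did not, at -0.088 to -0.011 against 0.015 to 0.03. The part of these lists in the Chgb difference was not tested. Without PBS_isolated replicate 1 the Chgb differences were 0.059 for KA in isolated rats and 0.074 for housing after PBS. In enriched rats the KA difference was -0.010 (SE 0.0664, 95% interval -0.153 to 0.134).

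Secretogranins were close to level across the groups. Scg2, the precursor of the peptide secretoneurin, had means from 895.7 ± 66.2 (SD, n = 3) in PBS_enriched to 950.4 ± 41.2 in KA_isolated, with samples from 844 to 1005, and all neighbours in that order overlapped. Scg3, which binds other granins to the vesicle membrane, ranged from 902.7 to 1041, and Scg5 (7B2), the chaperone that PCSK2 needs to mature, from 1638 to 1801. Their highest samples were only 1.19, 1.15 and 1.1 times their lowest.

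KA differences of Scg2 were 0.057 (SE 0.0808) in isolated and 0.061 (SE 0.0808) in enriched rats. Scg3 had 0.007 (SE 0.0746) and -0.079 (SE 0.0746), and Scg5 0.025 (SE 0.0657) and 0.04 (SE 0.0657). For Scg5 the 95% intervals of -0.117 to 0.167 and -0.102 to 0.182 bound the KA difference. A missed threshold does not show equal levels, but larger differences lie outside these intervals.

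Vgf, a precursor induced by neurotrophins and neuronal activity, varied more. Its signal was 303.5, 357.6 and 377.4 in PBS_isolated, and 260, 377.3 and 394.6 in KA_isolated. It was 370.8, 313 and 329.9 in PBS_enriched and 272.4, 338.5 and 285.1 in KA_enriched. KA_isolated replicate 1 was the lowest of the 12 samples and its replicate 3 the highest. Each group overlapped with its neighbours in the order of means.

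The KA difference of Vgf was -0.025 (SE 0.142) in isolated and -0.17 (SE 0.142) in enriched rats, and enriched against isolated housing gave -0.031 after PBS, -0.18 after KA and -0.10 over both (adjusted p = 0.902). Without KA_isolated replicate 1 the KA difference in isolated rats was 0.155 in place of -0.025, and the housing difference after KA was -0.357 (limma, adjusted p = 0.879). Egr1, which responds to neuronal activity, was the only gene of the immediate early list that passed for housing over both treatments (log2 0.45, SE 0.0647, limma, adjusted p = 0.042). It passed in 3 of 21 refits under other settings or with a sample left out, with adjusted p from 0.0168 to 0.491, and with the beta-actin covariate at 0.491. Scg2 and Vgf, which carry the full element in the sequences shown, had -0.027 (SE 0.0571) and -0.10 (SE 0.1) in the same comparison. Creb1, which encodes the element's binding factor, had 0.284 (SE 0.0936, adjusted p = 0.832). Whether the element, Egr1 or Creb1 had a part in the differences of Scg2 and Vgf was not tested.

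The convertase Pcsk2 had the largest housing difference of the 9 genes over both treatments. Its signal was 167.5, 155.1 and 175.2 in PBS_isolated and 157.5, 160.8 and 227.9 in KA_isolated. In enriched rats it was 183.9, 176.8 and 228.9 after PBS and 194.5, 222.7 and 196 after KA. All 6 enriched samples lay above the 5 lower isolated samples, and KA_isolated replicate 3 lay among the enriched ones.

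Pcsk2 was higher with enriched housing over both treatments by 0.19 (SE 0.0909, 95% interval -0.004 to 0.389), or 1.14-fold, with p = 0.0537 and adjusted p = 0.875 (limma) and an exact permutation p = 0.085. After PBS the difference was 0.22 (SE 0.129), and 0.111 without PBS_enriched replicate 3. After KA it was 0.17 (SE 0.129), from 0.083 without KA_isolated replicate 1 to 0.327 without KA_isolated replicate 3. KA differences were 0.11 (SE 0.129) in isolated and 0.058 (SE 0.129) in enriched rats. Without KA_isolated replicate 3 the housing difference over both treatments was 0.272 (limma, adjusted p = 0.81), and the KA difference in isolated rats was -0.053. Markers of thalamus and striatum were also higher with enriched housing over both treatments, in 6 of 6 tested, with a median of 0.117. Of these 1 had an unadjusted p under 0.05, reached by 5.64% of all probe sets. The 6 were Penk, Calb2, Ppp1r1b, Prkcd, Rgs9 and Tcf7l2. Calb2 is also in the interneuron list and Penk in the neuropeptide list, and Drd1, Drd2 and Adora2a were below the filter. Summed signal of the thalamus and striatum list (9 of 12 genes) was 841.9 to 865.6 in KA_enriched against 776.2 to 815.5 in KA_isolated. After PBS it was 823 to 895.4 in PBS_enriched against 763.5 to 854 in PBS_isolated. The part of this list in the Pcsk2 difference was not tested.

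After PBS 3 of 9 members had enriched samples that all lay above the isolated ones, Chga, Chgb and Pcsk2, where 5.49% of all probe sets did so and 6.11% were separated and lower. In the same comparison 5 of 6 thalamus and striatum markers were higher (median 0.135), with mean centred log2 values of 0.025 to 0.112 in PBS_enriched against -0.103 to 0.017 in PBS_isolated. All 4 tested choroid plexus markers were lower (median -0.175). Without PBS_isolated replicate 1, whose choroid plexus signal stood apart, the differences were 0.245 for Chga, 0.074 for Chgb and 0.224 for Pcsk2, and the part of either list was not tested. None of the 3 passed, with log2 differences of 0.18, 0.097 and 0.22, and after KA 0 of 9 were separated, where 6.28% of all probe sets were separated and higher and 4.53% lower. Over both treatments 0 of 9 were separated, with 0.189% of all probe sets higher, 0.116% lower and 0.305% either way. For KA over both housings it was likewise 0 of 9, with 0.0315% higher, 0.0735% lower and 0.105% either way. Chga, Chgb and Pcsk2 were compared in the same 6 samples after PBS, so their count is not that of independent observations.

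**Figure D3:**
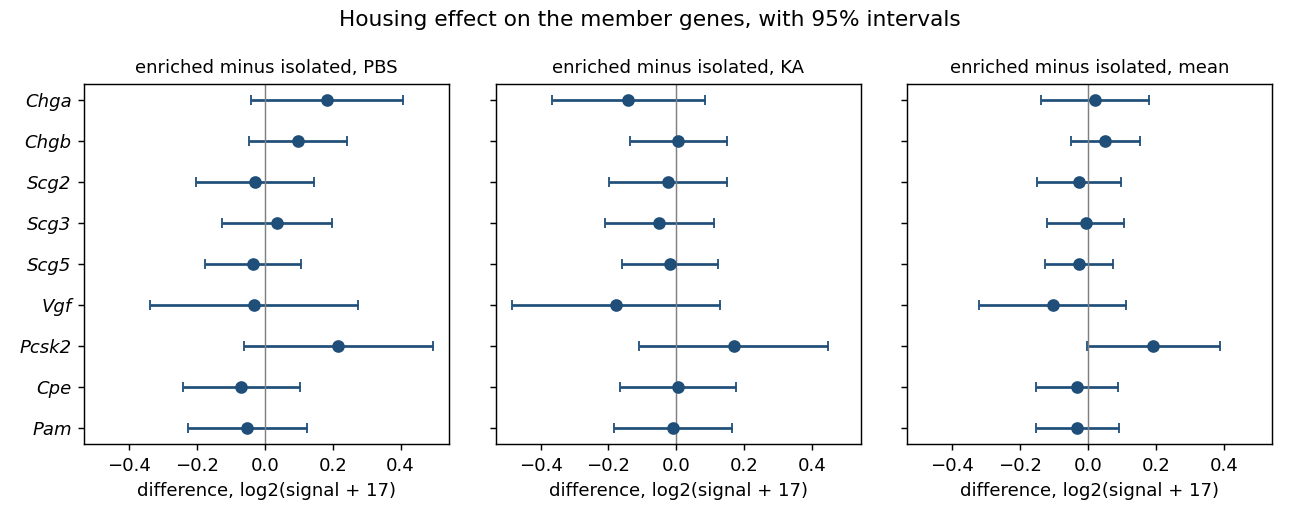
Log2 differences of enriched minus isolated housing in PBS rats, in KA rats and averaged over treatments, for the 9 tested genes; points are estimates and bars are 95% intervals of the limma model (3 samples a group). All intervals include 0; that of Pcsk2 over both treatments reaches from -0.004 to 0.389.

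For the enzymes that act after cleavage, all neighbours in the order of group means overlapped. Cpe, carboxypeptidase E, had signals from 3284 to 4130, and Pam lay between 630.4 and 746.9. KA differences of Cpe were 0.028 (SE 0.0794) in isolated and 0.10 (SE 0.0794) in enriched rats, and those of Pam 0 (SE 0.0809) and 0.042 (SE 0.0809). Pcsk1n encodes proSAAS, the inhibitor of PCSK1, and is given for that role although the naming rule did not pick it. Its signal was 1140 to 1593, with KA differences of 0.09 (SE 0.111) and 0.032 (SE 0.111).

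Across the 9 genes the median log2 difference was 0.025 for KA in isolated rats (7 higher and 2 lower) and 0.04 in enriched rats (5 and 4), beside -0.0025 and -0.0016 over all 6923 genes tested. For housing it was -0.029 after PBS, -0.019 after KA and -0.027 over both treatments, beside 0.0029, 0.0019 and 0.0016 over all genes. Median sizes without regard to sign were 0.0277, 0.061 and 0.0588 for KA in isolated rats, in enriched rats and over both housings, beside 0.0631, 0.0701 and 0.0466 over all genes. For housing they were 0.0517 after PBS, 0.0246 after KA and 0.0309 over both treatments, beside 0.0652, 0.0752 and 0.0513, and for the interaction 0.0728 beside 0.099. Members were thus below all genes in 6 of the 7 comparisons and above them for KA over both housings. The tested member probe sets were bright, at the 74.5 to 99.9 percentile of mean level. Replicate spread fell with level, from a median SD of 0.162 in the dimmest of 20 bins to 0.0836 in the brightest. Differences of genes of like level were not compared, and the 7 comparisons share samples. The count is therefore not read as a trait of the set.

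Correlations between members had both signs. Over 36 pairs of members the median Pearson correlation of log2 values across the 12 samples was 0.01, from -0.64 (Chga with Cpe) to 0.48 (Chgb with Pcsk2), with 18 pairs positive, and the median over all gene pairs was 0. Replicates within a group differed least for Scg5 and Chgb, with SDs of 0.042 and 0.0445 on the log2 scale, at the 4.2 and 4.4 percentile of the 500 tested probe sets nearest in level. Vgf (0.201) and Pcsk2 (0.178) had SDs at the 93.2 and 83.6 percentile on the same measure, and Chga (0.133) at the 70.4 percentile.

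**Figure D4:**
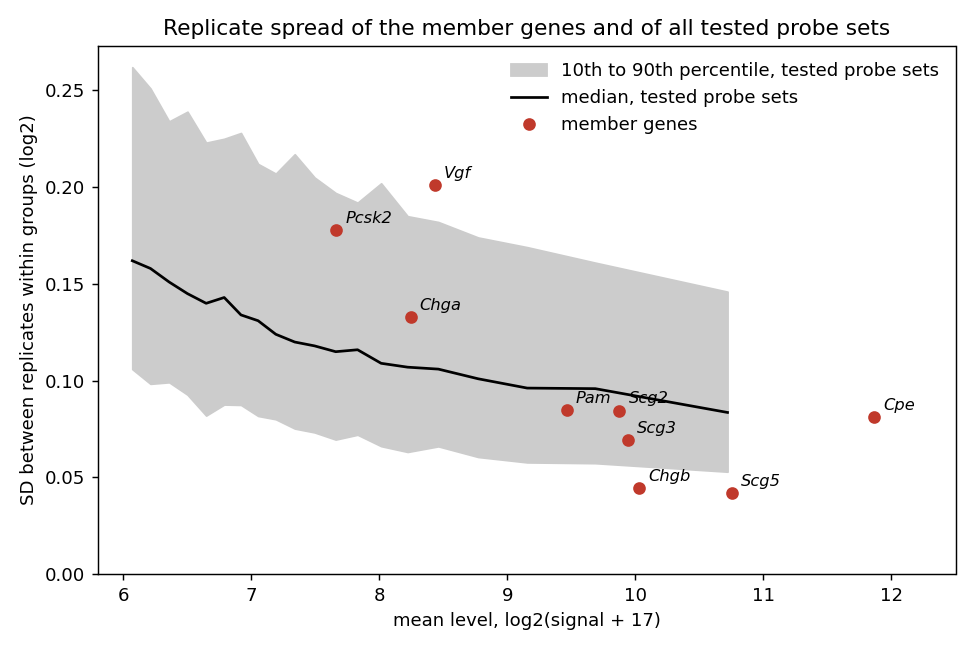
SD between replicates within groups against mean level, both on the log2(signal + 17) scale; red points are the 9 member genes, the line is the median of tested probe sets in 20 bins of level and the band their 10th to 90th percentile. Chgb and Scg5 lie below the band and Vgf above it.

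The genes whose pattern over the 12 samples was most like that of Chga were Vta1, of endosomal sorting (Pearson r = 0.9, Spearman rho = 0.93), Decr2, a peroxisomal reductase of fatty acid breakdown (0.87 and 0.93), and Mettl3, an RNA methyltransferase (0.81 and 0.8). After group means were removed r was 0.8, 0.6 and 0.83. For Vgf the nearest gene was Pdss2 (r = 0.85), for Pcsk2 Ccdc65 (0.93), for Scg2 Ampd3 (0.9) and for Scg3 Prdx3 (0.93). For Cpe it was Calm2 (0.87), for Pam Naa35 (0.91), for Scg5 Vax2 (0.88) and for Chgb Rmc1 (0.86). Each is the highest of its correlations with the 6923 genes tested other than members and is given as a description.

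Other genes of dense-core vesicle formation, processing and release numbered 66 in the list used, of which 39 were tested, and 0 passed in any of the 7 comparisons (limma). In enriched rats 2 were higher and 2 lower after KA at an unadjusted p under 0.05, reached by 4.98% of all probe sets. Svop, a transporter-like protein of vesicles, was 510 ± 16.9 (SD, n = 3) after PBS and 327 ± 47.9 after KA (log2 -0.62, SE 0.131, adjusted p = 0.842). Rab2a, a GTPase of vesicle maturation, was 983 ± 37.5 and 883 ± 23.9 (-0.15, SE 0.0695). Furin, the convertase of the constitutive pathway, was 78.8 ± 9.59 and 97.1 ± 3.53 (0.26, SE 0.101), and the SNARE gene Vamp2 989 ± 67.8 and 1300 ± 304 (0.36, SE 0.159).

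At that threshold, reached by 4.31% of all probe sets, 1 of the 39 was higher after KA in isolated rats and 0 lower. This was Ptprn (IA-2), a membrane protein of the vesicles, at 728 ± 161 in PBS_isolated and 900 ± 52.6 in KA_isolated (0.32, SE 0.123, adjusted p = 0.999). Over both treatments 1 was higher and 1 lower with enriched housing, where 5.64% of all probe sets reached the threshold. Cyb561, which passes electrons into the vesicle for PAM, was 186 ± 7.43 in PBS_isolated and 171 ± 6.5 in PBS_enriched, and with KA 204 ± 11.8 and 170 ± 2.62 (-0.175, SE 0.0488, adjusted p = 0.683). The vesicle protein gene Sv2a had 0.24 (SE 0.0757, adjusted p = 0.832). The median of the list was 0.018 for KA in enriched rats and -0.003 for housing over both treatments.

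Precursors that these enzymes process were measured too. Of 51 neuropeptide and secreted factor genes 21 were tested and 0 passed in any comparison (limma). For housing over both treatments 3 were higher and 3 lower at an unadjusted p under 0.05, reached by 5.64% of all probe sets. Grp, gastrin-releasing peptide, was 135 ± 7.22 in PBS_isolated and 95.8 ± 10.8 in PBS_enriched (-0.43, SE 0.101, adjusted p = 0.854), and 106 ± 15.2 and 105 ± 8.58 in the KA groups. Cck, cholecystokinin, had -0.19 (SE 0.0553, adjusted p = 0.733), Sst, somatostatin, -0.18 (SE 0.071) and Bdnf 0.16 (SE 0.0623) for housing over both treatments. Gal, galanin, had the smallest p for KA in enriched rats, at 65.2 ± 6.01 after PBS and 83.4 ± 11.3 after KA (0.29, SE 0.0951, adjusted p = 0.932).

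Of 26 regulators of secretory genes around CREB and REST 15 were tested and 0 passed (limma). For KA in enriched rats 1, the neuronal factor Neurod1, was higher at an unadjusted p under 0.05 (0.28, SE 0.13, limma, adjusted p = 0.932). That threshold was reached by 4.98% of all probe sets, and the median of the list was -0.002. Of 32 immediate early genes 21 were tested and 1 of them, Egr1, passed for housing over both treatments, with 16 higher and 5 lower and a median of 0.035. At an unadjusted p under 0.05, 8 of the 21 were higher and 0 lower, where 5.64% of all probe sets reached that threshold. After Egr1 the smallest p values were those of Arc (0.576, SE 0.0934, limma, adjusted p = 0.105), Egr4 (0.563, SE 0.0946, adjusted p = 0.112) and Junb (0.358, SE 0.075, adjusted p = 0.281). The medians of both lists stand beside -0.0016 and 0.0016 over all genes tested.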

How the data were processed

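The deposited values are linear probe set intensities; how probes were summarised is not stated in the labels. Each deposited array has a mean intensity of 150 after the lowest and highest 2% are left out. The 12 array medians lay between 70.06 and 74.1, so no further normalization was applied. Precision rests on 3 arrays a group. After removal of 57 control probe sets the intensities were transformed as log2(signal + 17), 17 being the 20th percentile of the table, and the 60% of probe sets with the highest mean were tested (9520). This scale understates changes of dim genes. Gene names came from the supplied array annotation (12789 probe sets with 1 symbol, 312 with several, 2822 not listed). Entrez IDs matched to RefSeq changed 0 symbols.

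The main fit was limma 3.58.1 in R 4.3.3, with 4 group means fitted to the 12 samples together (13.1 degrees of freedom), 7 two-sided contrasts and Benjamini-Hochberg adjustment over 9520 probe sets at 0.05. The fit was tested on simulated data. Named were all members, at most 4 genes of each other list by smallest p in the comparison described, and the 3 genes most correlated with each member. For genes with several probe sets, the one with the highest mean was used. The members and lists were chosen with earlier results of these data known. Alternatives were other pseudocounts, filters, normalizations, weights, covariates and sample sets, and exact permutation tests.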

Additional observations from a re-analysis of the deposited data

How the results depend on the processing

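No member passed in any fit that was run (0 in each, limma; lowest adjusted p 0.404): 9 alternative settings and 12 fits with a sample left out for all 7 comparisons, and the fit of only the groups compared for the 4 comparisons of single groups. The KA difference of Chga in enriched rats was negative throughout, from -0.519 without KA_enriched replicate 3 to -0.343 without KA_enriched replicate 1, with adjusted p from 0.404 to 0.999. Its KA difference over both housings had an unadjusted p of 0.00498 with limma and of 0.025 with the exact permutation test. Adjusted over 9520 probe sets, limma's p was 0.996. Of 1359 refitted log2 differences 77 turned sign, 53 of them with a sample left out; the main values of these were at most 0.106 in size, none had passed, and the cause was not tested. With arrays scaled to equal medians, the sign turned for KA in enriched rats of Chgb to 0.001, housing after KA of Cpe to -0.02 and Chgb to -0.019, interaction of Scg2 to 0. With quantile normalization, the sign turned for KA in isolated rats of Cpe to -0.013, Scg3 to -0.014 and Pam to -0.015, housing after PBS of Scg5 to 0, housing after KA of Scg5 to 0.006 and Pam to 0.008, housing over both treatments of Cpe to 0.003, Scg5 to 0.003 and Scg3 to 0.009. With array weights, the sign turned for KA in isolated rats of Scg3 to -0.004, housing after PBS of Vgf to 0.008, housing after KA of Cpe to -0.001, housing over both treatments of Chga to -0.016, interaction of Scg5 to -0.008. With the beta-actin ratio as a covariate, the sign turned for housing after PBS of Vgf to 0.006, housing after KA of Scg2 to 0.022, housing over both treatments of Scg2 to 0.007 and Chga to -0.033, interaction of Scg5 to -0.007 and Pcsk2 to 0.002. The dim Pam probe set with a mean signal of 24.92 had the opposite sign to the bright one for KA in isolated rats (-0.483), KA in enriched rats (-0.218), KA over both housings (-0.35), housing after PBS (0.015), housing after KA (0.28) and housing over both treatments (0.148). The dim Pam probe set with a mean signal of 2.785 had the opposite sign to the bright one for KA in isolated rats (-0.134), KA over both housings (-0.052) and housing after KA (0). With each sample left out in turn, these log2 differences took both signs. For Pam the range was -0.044 to 0.05 (KA in isolated rats), -0.008 to 0.086 (interaction), -0.001 to 0.046 (KA over both housings), -0.055 to 0.034 (housing after KA) and -0.002 to 0.082 (KA in enriched rats). For Scg2 the range was -0.087 to 0.012 (housing after PBS), -0.048 to 0.062 (interaction) and -0.077 to 0.025 (housing after KA). For Scg3 the range was -0.029 to 0.017 (housing over both treatments), -0.042 to 0.043 (KA in isolated rats) and -0.007 to 0.069 (housing after PBS). For Chga the range was -0.033 to 0.055 (housing over both treatments). For Scg5 the range was -0.006 to 0.045 (interaction) and -0.037 to 0.011 (housing after KA). For Vgf the range was -0.131 to 0.155 (KA in isolated rats) and -0.118 to 0.031 (housing after PBS). For Cpe the range was -0.045 to 0.067 (housing after KA) and -0.035 to 0.077 (KA in isolated rats). For Pcsk2 the range was -0.053 to 0.192 (KA in isolated rats), -0.134 to 0.111 (interaction) and -0.008 to 0.164 (KA in enriched rats). For Chgb the range was -0.036 to 0.042 (housing after KA) and -0.051 to 0.027 (KA in enriched rats).

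Over all probe sets, KA in isolated rats gave 5 calls in place of 1 when only the groups compared were fitted, and other comparisons gave 0 to 2 calls in every fit. Deviations of samples with the same replicate number had a median correlation of 0.056 (18 pairs, -0.072 to 0.199). Pairs with different numbers had a median of -0.015 (36 pairs, -0.142 to 0.101), and 1 pair of each kind was above 0.1. Of the 12 samples 5 correlated best with their own number. The numbers were not taken as pairs in the main fit, and whether they mark a batch was not tested. With the replicate block 0 members passed in each comparison, and the Chga difference was -0.411 (limma, adjusted p = 0.745). The permutation test of the interaction and the count of dibasic sites, for which no protein sequences were used here, were not run. With 3 pools a group, 95% intervals for KA in a single housing reached 0.142 to 0.306 to either side.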
